A study of Homo sapiens with 10 samples.

Results

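The 43 genes described here encode collagen chains. They are all genes on the array whose symbol in the platform annotation reads COL, a number, A and a number, out of 18279 genes with a probe set of their own. The rule reads gene symbols alone. Levels came from 10 Affymetrix arrays of cultured human lung cells, in 4 groups that differ in line, in exposure to discodermolide or in both. Discodermolide is a microtubule-stabilising compound first isolated from a marine sponge. The AD32 4E-BP1 line, which is named after the translation repressor 4E-BP1 and labelled sensitive, was kept in 0.01% DMSO and gave 1 array. AD32, labelled resistant, was kept in 32 nM discodermolide and gave 3 arrays. A549, a lung adenocarcinoma line, gave 2 arrays after 32 nM discodermolide (labelled senescent, "A549 disco" here) and 4 arrays in 0.01% DMSO (labelled sensitive). The labels give no length of treatment and do not say whether a line is 1 clone. AD32 was measured only in the drug and AD32 4E-BP1 only in DMSO, so line and drug cannot be told apart in AD32 against A549 DMSO or in AD32 4E-BP1 against AD32. AD32 and A549 disco share the drug, and AD32 4E-BP1 and A549 DMSO share the vehicle.

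Collagens are secreted proteins of 3 chains wound into a triple helix, a shape that needs glycine at regular steps and hydroxylated prolines. Fibrillar collagens make the fibrils of connective tissue. Type IV collagen instead forms the sheet-like network of basement membranes under epithelia, from trimers of the COL4A1 and COL4A2 chains in nearly all tissues and from trimers that contain COL4A3, COL4A4, COL4A5 or COL4A6 chains in a few, among them the alveolar basement membrane of the lung. Epithelial cells make type IV collagen, whereas most fibrillar collagen of a tissue comes from fibroblasts.

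Several arrays stood apart from their group, which bears on every comparison. Over all genes, AD32 replicate 3 correlated more closely with A549 DMSO replicates 2 to 4 (r = 0.970 to 0.977) than with AD32 replicates 1 and 2 (r = 0.951 and 0.958). The array closest to AD32 replicate 3 was the AD32 4E-BP1 array (r = 0.979). A549 DMSO replicate 1 was closer to both A549 disco arrays (r = 0.976 and 0.974) than to its own group (r = 0.948 to 0.954). The lone AD32 4E-BP1 array was closest to A549 DMSO replicate 2 (r = 0.995), and A549 DMSO replicates 3 and 4 were nearly the same (r = 0.997). These are correlations across genes, which are not independent. The labels call the numbered arrays biological replicates without saying what was separate, so the p-values measure the spread between these arrays only.

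Of the 43 collagen genes, 9 had a level above the median of all genes on all 10 arrays. They were COL1A1, COL4A2, COL5A2, COL6A1, COL6A2, COL7A1, COL9A3, COL18A1 and COL23A1, which is 20.9% of the collagen genes, against 41.3% of all genes. Another 9 lay below the lower quartile of all genes on every array (20.9%, against 20.1% of all genes), namely COL6A3, COL6A5, COL6A6, COL8A1, COL10A1, COL11A1, COL14A1, COL19A1 and COL21A1. The remaining 25 lay between these limits or crossed 1 of them. Over the arrays the median of all genes ran from 6.82 to 6.91 and the lower quartile from 5.06 to 5.25 on the deposited log2 scale. Nothing in the deposited values tells signal from background, so a low level means only that the probe set was dim, and levels of different genes are no measure of their relative amounts.

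**Figure D1:**
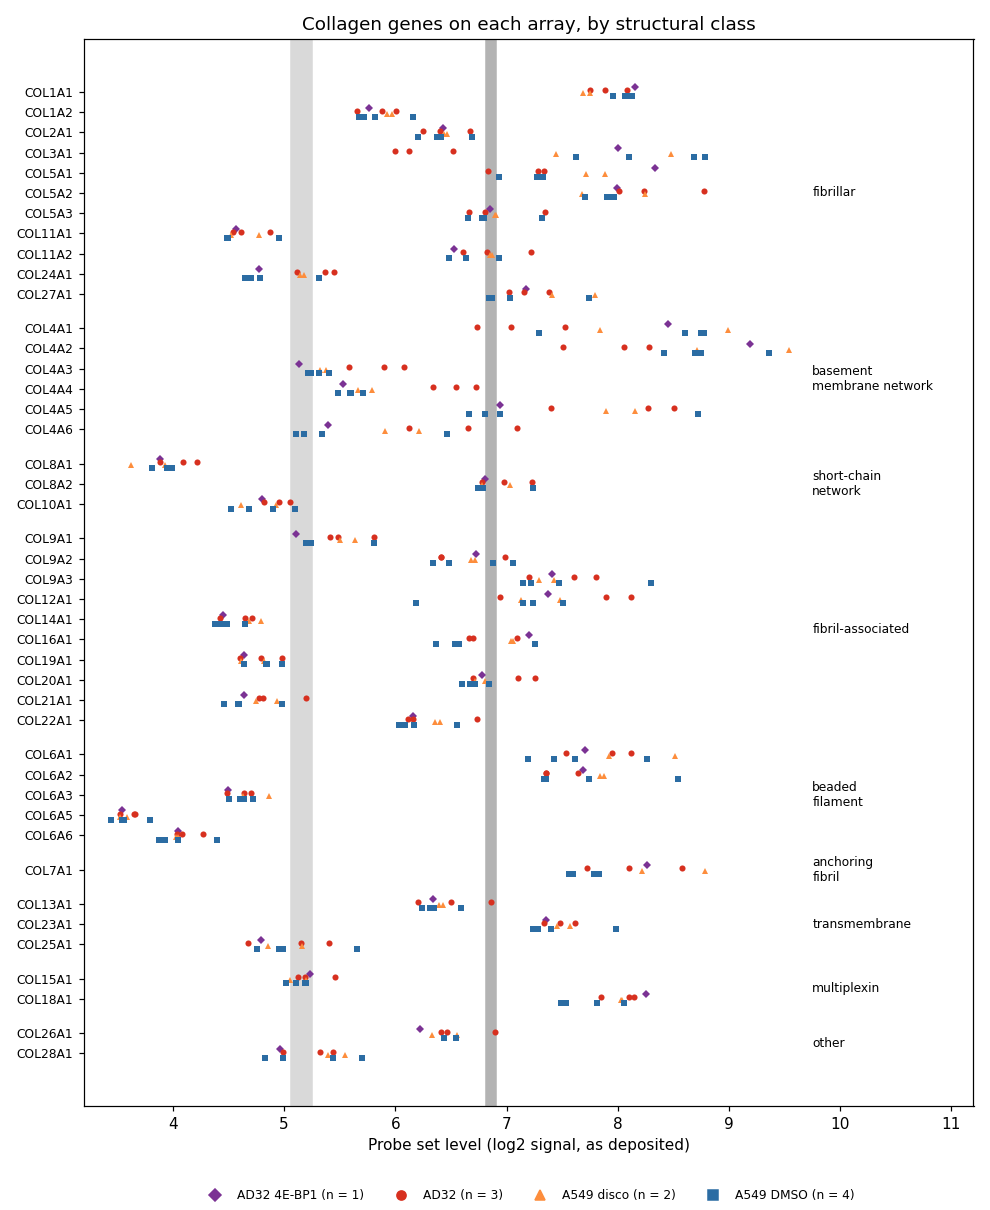
Level of each of the 43 collagen genes on each of the 10 arrays (x axis, log2 signal as deposited), with genes grouped by structural class down the page and 1 point per array, coloured by group. The light grey band is the range over arrays of the lower quartile of all genes (5.06 to 5.25) and the darker band the range of their medians (6.82 to 6.91), and COL3A1 is the gene with the widest spread.

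The genes above the median on every array came from 7 of the 9 structural classes. COL18A1, whose product sits in basement membranes and releases endostatin, had a level of 8.25 on the AD32 4E-BP1 array, 7.85 to 8.15 in AD32, 8.04 and 8.03 in A549 disco and 7.49 to 8.06 in A549 DMSO. COL7A1, which encodes the anchoring fibrils that fasten epithelia to the tissue below, had 8.27 on the AD32 4E-BP1 array, 7.73 to 8.57 in AD32, 8.78 and 8.22 in A549 disco and 7.56 to 7.83 in A549 DMSO. COL23A1, a collagen that spans the plasma membrane, stayed between 7.24 and 7.99 over all arrays. All 3 genes are described here because they were above the median of all genes on every array.

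Chains that share a trimer could lie on different sides of the median of all genes, which places each probe set on the array and does not compare transcript amounts between chains. COL1A1 stayed within 7.69 to 8.16 over the 10 arrays, above the median of all genes on each, whereas its usual partner COL1A2 ran from 5.66 to 6.16, below that median on each. COL6A1 (7.19 to 8.52) and COL6A2 (7.34 to 8.54) were above the median on all arrays. COL6A3, the remaining chain of the classical type VI filament, was below the lower quartile on all arrays, at 4.48 to 4.87. In type IX collagen, a decoration of cartilage fibrils, COL9A3 was above the median on all arrays, COL9A2 ran from 6.34 to 7.05 and COL9A1 from 5.11 to 5.81. COL5A2 was above the median throughout, while COL5A1 and COL5A3 crossed it. A probe set's brightness also depends on its probes, and how far that sets these differences was not tested. A further probe set that names both COL1A2 and the lipase gene PNLIP was left out (3.40 to 3.75).

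In AD32 against A549 DMSO, 1 collagen gene rose and 1 fell. COL4A4, a chain of the restricted type IV networks, was 1.92-fold higher in AD32, and COL3A1, the fibrillar chain of pliable tissues such as vessel wall and lung, was 4.23-fold lower. These 2 of 43 genes are 2 of 1045 called over all genes, a background of 5.72%. Over all genes 3.52% were called higher and 2.19% lower. At an unadjusted p under 0.05, 7 collagen genes passed, against 19.7% of all genes. The group mean was higher in AD32 for 32 collagen genes and lower for 11, with a median log2 difference of 0.11 against 0.01 over all genes. In A549 disco against the same A549 DMSO arrays the split was also 32 to 11, with a median of 0.09 against 0.02 over all genes. Calls are adjusted p under 0.05 from limma with Benjamini-Hochberg adjustment over all genes.

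Type IV collagen held 5 of the 7 collagen genes with an unadjusted p under 0.05, but COL4A4 alone passed the adjusted test. The group mean in AD32 was higher for COL4A3, COL4A4, COL4A5 and COL4A6 and lower for COL4A1 and COL4A2. The genes lie in 3 head-to-head pairs, in which both members of a pair are read outward from a shared stretch of DNA. In RefSeq coordinates of GRCh38.p14 the starts lie 127 bases apart for COL4A1 and COL4A2 on chromosome 13, 419 apart for COL4A4 and COL4A3 on chromosome 2, and 380 apart for COL4A6 and COL4A5 on the X chromosome. The promoters of the called gene and its pair partner, and of 1 gene from each other pair, are shown so that the shared stretches can be seen beside the values. Each window runs from 250 bases before to 50 bases after the gene's start, 5′ to 3′ on the gene's strand. Capitals mark GGGCGG or its reverse complement CCGCCC (the GC box) and CCAAT or its reverse complement ATTGG. The windows lie at chr2:227164156-227164455 on the minus strand for COL4A4, chr2:227164374-227164673 on the plus strand for COL4A3, chr13:110307108-110307407 on the minus strand for COL4A1 and chrX:108439588-108439887 on the plus strand for COL4A5.
COL4A4: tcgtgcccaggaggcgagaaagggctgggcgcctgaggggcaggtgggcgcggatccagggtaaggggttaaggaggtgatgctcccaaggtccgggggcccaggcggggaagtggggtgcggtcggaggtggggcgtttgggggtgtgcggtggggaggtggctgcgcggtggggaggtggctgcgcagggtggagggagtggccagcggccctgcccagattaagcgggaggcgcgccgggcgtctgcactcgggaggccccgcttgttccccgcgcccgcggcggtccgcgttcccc
COL4A3: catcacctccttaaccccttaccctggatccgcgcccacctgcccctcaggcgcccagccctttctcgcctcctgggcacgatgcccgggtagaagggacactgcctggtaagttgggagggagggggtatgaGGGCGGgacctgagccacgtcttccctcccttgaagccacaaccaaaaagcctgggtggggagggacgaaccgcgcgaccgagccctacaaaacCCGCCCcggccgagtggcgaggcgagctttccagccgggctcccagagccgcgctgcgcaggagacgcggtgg
COL4A1: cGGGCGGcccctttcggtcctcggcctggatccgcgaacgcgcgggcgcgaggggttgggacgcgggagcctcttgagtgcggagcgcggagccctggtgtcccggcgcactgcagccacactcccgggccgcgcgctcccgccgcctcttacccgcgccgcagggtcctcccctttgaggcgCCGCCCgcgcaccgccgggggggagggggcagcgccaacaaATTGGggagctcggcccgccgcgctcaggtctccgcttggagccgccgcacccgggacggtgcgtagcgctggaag
COL4A5: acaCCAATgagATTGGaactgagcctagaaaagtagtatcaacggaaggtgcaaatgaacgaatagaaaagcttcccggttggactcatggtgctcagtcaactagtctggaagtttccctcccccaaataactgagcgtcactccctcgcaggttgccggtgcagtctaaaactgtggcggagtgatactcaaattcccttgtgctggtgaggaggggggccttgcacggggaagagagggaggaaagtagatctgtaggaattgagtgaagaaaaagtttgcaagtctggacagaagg
The windows of paired genes overlap as reverse complements, by 82 bases for COL4A4 and COL4A3, 226 for COL4A1 and COL4A2 and 121 for COL4A6 and COL4A5.

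These letters differ between the pairs. The GC box occurred 2 times in the COL4A1 window, 1 time in that of COL4A2 and 2 times in that of COL4A3, and not in the other windows, against 45% of all 35116 promoter windows in the table with at least 1. The CCAAT letters occurred 1 time each for COL4A1 and COL4A2, 2 times for COL4A5 and 3 times for COL4A6, and not for COL4A3 or COL4A4 (34.6% of all windows hold them). Some of these are the same site read from both genes, namely the CCAAT match of COL4A1 and COL4A2, both CCAAT matches of COL4A5, which are among those of COL4A6, and the GC box of COL4A2, which is among those of COL4A1. Both motifs were searched on both strands and do not overlap each other. TATAAA was in none of the 6 windows (11.5% of all windows). The share of G and C was 76.7% and 77.7% for COL4A1 and COL4A2, 67.7% and 74.0% for COL4A3 and COL4A4, and 49.3% and 43.7% for COL4A5 and COL4A6. A match is only a match of letters and says nothing of binding. Of the 43 collagen genes, 31 have a window in the table.

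COL4A4 was at 6.34, 6.55 and 6.73 in AD32 replicates 1 to 3, against 5.71, 5.59, 5.60 and 5.49 in A549 DMSO replicates 1 to 4. All 3 AD32 arrays were above all 4 A549 DMSO arrays, with a log2 difference of 0.94 (SE 0.13, adjusted p = 0.00426, limma). The call held in all 20 alternatives run, including each array left out. The level in AD32 was below the median of all genes on each array.

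Its pair partner COL4A3, the chain that carries the Goodpasture antigen, was at 6.08, 5.90 and 5.59 in AD32, against 5.40, 5.32, 5.24 and 5.21 in A549 DMSO. The AD32 arrays were again all higher, with a log2 difference of 0.56 (SE 0.14), and the test just missed its threshold (adjusted p = 0.0504). It passed in 7 alternatives, among them the fit that left out AD32 replicate 3 (adjusted p = 0.0134) and the fit that left out A549 DMSO replicate 1 (adjusted p = 0.0342).

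COL4A1, a chain of the common type IV network, was at 6.73, 7.04 and 7.53 in AD32, against 7.29, 8.78, 8.60 and 8.75 in A549 DMSO. The groups overlapped only through A549 DMSO replicate 1, which was below AD32 replicate 3. The log2 difference of -1.26 (SE 0.41) did not pass (adjusted p = 0.125). With A549 DMSO replicate 1 left out, the difference was -1.61 and passed (adjusted p = 0.013). COL4A2 was at 7.504, 8.05 and 8.29 in AD32, against 8.42, 9.36, 8.75 and 8.70 in A549 DMSO, so that every AD32 array was lower. Its log2 difference was -0.86 (SE 0.29, adjusted p = 0.132).

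COL4A5, the chain whose loss causes X-linked Alport syndrome, was at 8.51, 8.28 and 7.40 in AD32, against 8.72, 6.95, 6.81 and 6.66 in A549 DMSO. A549 DMSO replicate 1 was the highest of these 7 arrays, and the other 3 A549 DMSO arrays were below every AD32 array. COL4A6, its neighbour on the X chromosome, was at 7.10, 6.66 and 6.12 in AD32, against 6.46, 5.34, 5.10 and 5.18 in A549 DMSO, with the same array apart. The log2 differences were 0.77 (SE 0.49, adjusted p = 0.451) for COL4A5 and 1.10 (SE 0.35, adjusted p = 0.111) for COL4A6. Without A549 DMSO replicate 1 they were 1.25 (adjusted p = 0.0207) and 1.42 (adjusted p = 0.00834), and both passed.

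**Figure D2:**
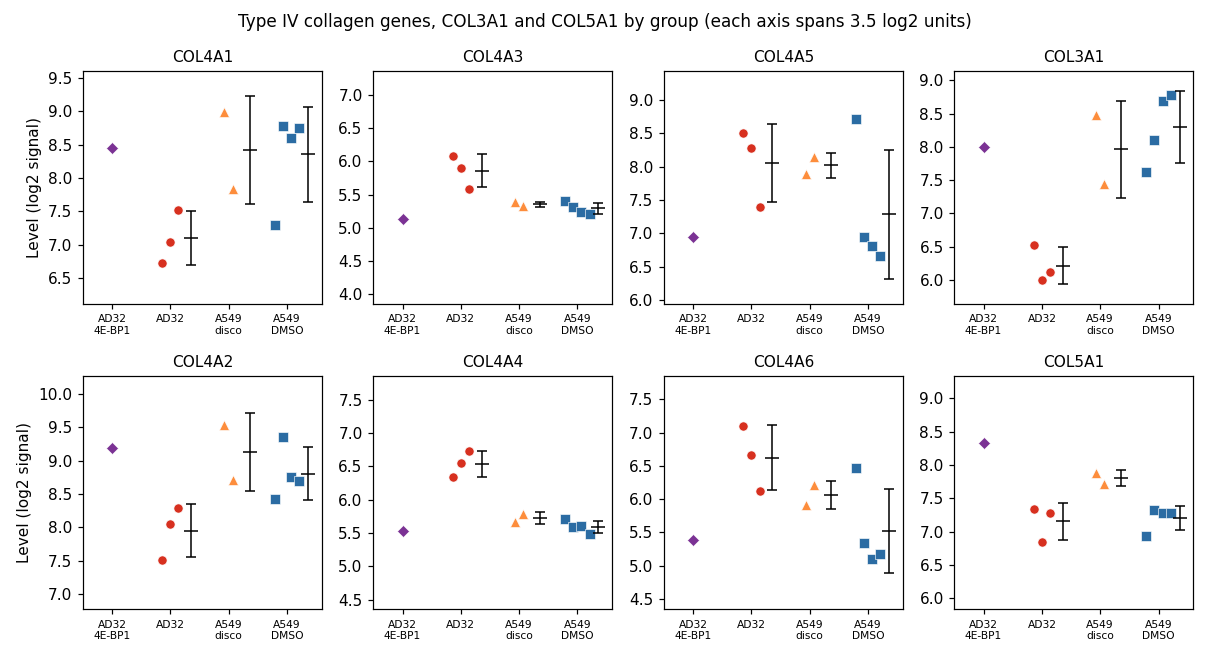
Levels (y axis, log2 signal) of the 6 type IV collagen genes, COL3A1 and COL5A1 on each array, in the groups AD32 4E-BP1, AD32, A549 disco and A549 DMSO from left to right. Points are arrays, and lines give the mean and SD of a group (AD32 4E-BP1 has 1 array and no SD). COL4A4 is higher and COL3A1 lower on all 3 AD32 arrays than on every other array, and 1 A549 DMSO array stands apart in COL4A1, COL4A5 and COL4A6.

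The number of called collagen genes in AD32 against A549 DMSO turned on A549 DMSO replicate 1. Without it, 7 were called (11.8% of all genes), with COL4A3, COL4A4, COL4A5, COL4A6 and the minor fibrillar chain COL24A1 higher and COL3A1 and COL4A1 lower. Without AD32 replicate 3, 3 were called (10.8% of all genes). With both arrays removed, an alternative added after the data had been seen, 11 were called (28.3% of all genes), and COL4A1 and COL4A2 were lower while the other 4 type IV genes were higher.

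COL3A1 was at 6.52, 6.001 and 6.13 in AD32, against 7.62, 8.10, 8.68 and 8.78 in A549 DMSO. Every AD32 array was below every A549 DMSO array and below the median of all genes, while every A549 DMSO array was above that median. The log2 difference was -2.08 (SE 0.33, adjusted p = 0.00789), the largest of any collagen gene in this comparison in the fit of all arrays, and it held in all 20 alternatives. COL5A2, the next gene to COL3A1 on chromosome 2 and a chain that helps to set fibril width, was at 8.01, 8.77 and 8.23 in AD32, against 7.96, 7.71, 7.90 and 7.93 in A549 DMSO. Here the AD32 arrays were all higher, and the log2 difference of 0.46 (SE 0.21) did not pass (adjusted p = 0.258). COL1A1 (log2 difference -0.15, SE 0.12, adjusted p = 0.587) and COL1A2 (0.01, SE 0.15, adjusted p = 0.992) had overlapping arrays.

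The arrays of the groups did not overlap for 5 collagen genes in this comparison. COL4A3, COL4A4 and COL5A2 were higher on every AD32 array (8.9% of all genes were), and COL3A1 and COL4A2 were lower on every AD32 array (6.48% of all genes). Outside type IV, COL3A1 and COL5A2, the group means of the collagen genes above the median differed by -0.29 (COL6A2) to 0.44 (COL7A1) on the log2 scale, with adjusted p between 0.31 and 0.998. COL12A1, which decorates fibrils and was singled out after its values were seen, had the widest range over arrays outside the named genes, from 6.18 on A549 DMSO replicate 1 to 8.12 on AD32 replicate 2.

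**Figure D3:**
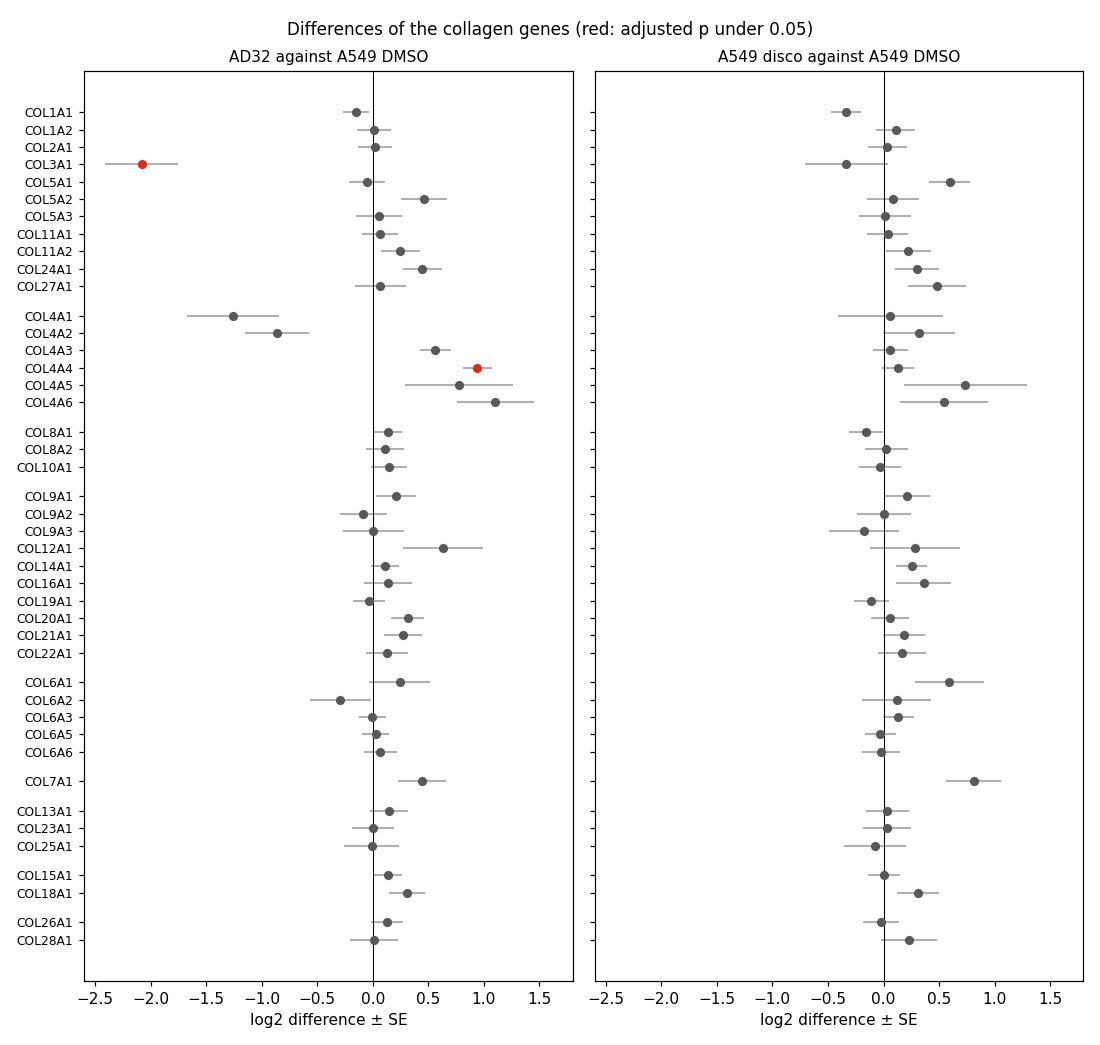
Log2 difference with its SE (x axis) for each of the 43 collagen genes, for AD32 against A549 DMSO on the left and A549 disco against A549 DMSO on the right. Red marks adjusted p under 0.05, which COL4A4 and COL3A1 have on the left and no collagen gene has on the right. Both panels share the 4 A549 DMSO arrays.

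Discodermolide-treated A549 cells showed no collagen gene past the threshold against A549 DMSO, by limma, where 0.372% of all genes were called (0.35% higher and 0.0219% lower). At an unadjusted p under 0.05 there were 3 collagen genes, against 11.1% of all genes. The smallest p belonged to COL7A1, which was at 8.78 and 8.22 in A549 disco, against 7.83, 7.79, 7.56 and 7.59 in A549 DMSO. Both treated arrays were higher, with a log2 difference of 0.81 (SE 0.25, adjusted p = 0.249). COL5A1, a nucleator of fibrils, was at 7.88 and 7.72 in A549 disco, against 6.94, 7.33, 7.27 and 7.29 in A549 DMSO, also higher on both (0.60, SE 0.19, adjusted p = 0.27). COL1A1 was at 7.75 and 7.69 in A549 disco, against 8.06, 8.13, 7.96 and 8.09 in A549 DMSO, lower on both (-0.34, SE 0.14, adjusted p = 0.401).

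Those genes and COL14A1 were the only collagen genes whose A549 disco and A549 DMSO arrays did not overlap, 3 higher (15.2% of all genes) and 1 lower (7.71% of all genes). COL3A1, called in AD32, was at 8.48 and 7.45 in A549 disco, inside or just below the A549 DMSO range, with a log2 difference of -0.34 (SE 0.38, adjusted p = 0.837). COL4A4, at 5.66 and 5.79, differed by 0.13 (SE 0.15, adjusted p = 0.841). With array weights, 13 collagen genes passed (25% of all genes), 12 higher and COL1A1 lower. The weights were lowest for A549 DMSO replicate 1 (0.184) and highest for A549 DMSO replicates 3 and 4 (2.925 and 4.637). A549 DMSO replicates 3 and 4 were nearly the same over all genes (r = 0.997). How far the 13 calls rest on that pair was not tested. With A549 DMSO replicate 1 and AD32 replicate 3 removed, 7 passed, all higher (14.5% of all genes).

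AD32 and A549 disco were measured at the same stated drug concentration. COL4A4 was again higher in AD32 and COL3A1 lower, the 2 collagen genes called, against a background of 3.74% (1.28% higher and 2.46% lower). At an unadjusted p under 0.05 there were 6 collagen genes, against 15.5% of all genes. COL4A4 was higher on all 3 AD32 arrays than on both A549 disco arrays (log2 difference 0.81, SE 0.16, adjusted p = 0.0239). COL3A1 was lower on all 3 (-1.746, SE 0.40, adjusted p = 0.0471). Both calls ended with only the compared groups fitted, with the replicate number as a block (adjusted p = 0.0623 for COL3A1 and 0.0887 for COL4A4) and against a minimum fold, and that of COL3A1 also with median centring. They also hung on single arrays. The COL3A1 call ended without any 1 of the 3 AD32 arrays, the 2 A549 disco arrays or A549 DMSO replicates 2 to 4 (adjusted p up to 0.356, without A549 disco replicate 1). The COL4A4 call ended without AD32 replicate 2 (adjusted p = 0.0643), A549 disco replicate 1 (0.207) or 2 (0.144), or A549 DMSO replicate 3 (0.0523).

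The other type IV genes had no call between AD32 and A549 disco. COL4A1 averaged 7.10 ± 0.40 (SD, n = 3) in AD32 and 8.42 ± 0.81 (SD, n = 2) in A549 disco, with no overlap (log2 difference -1.32, adjusted p = 0.22). COL4A2 averaged 7.95 ± 0.40 in AD32 and 9.12 ± 0.59 in A549 disco, also without overlap (-1.18, adjusted p = 0.112). COL4A5 averaged 8.06 ± 0.58 in AD32 and 8.02 ± 0.18 in A549 disco, a log2 difference of 0.04 with an SE of 0.58. COL5A1 was at 7.34, 6.84 and 7.28 in AD32, below both A549 disco arrays (-0.65, SE 0.20, adjusted p = 0.123). In all, 3 collagen genes were higher on every AD32 array (14.4% of all genes) and 6 lower (18% of all genes).

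No collagen gene passed in AD32 4E-BP1 against AD32, by limma, where 0.919% of all genes were called (0.339% higher and 0.58% lower), and 6 had an unadjusted p under 0.05 (9.46% of all genes). The test takes the spread of the lone array to equal that of the replicated groups. On it COL4A4 was at 5.53, below all 3 AD32 arrays (log2 difference -1.01, SE 0.20, adjusted p = 0.0599). COL5A1 was at 8.34, above all 3 AD32 arrays (1.18, SE 0.25, adjusted p = 0.08). COL3A1 was at 8.003, also above them (1.79, SE 0.50, adjusted p = 0.216). The COL4A4 and COL5A1 differences passed without AD32 replicate 3 (adjusted p = 0.0424 for each), as COL4A3 did (0.0472), and without A549 DMSO replicate 1 (adjusted p = 0.0451 for COL4A4 and 0.0401 for COL5A1). The AD32 4E-BP1 array was below every AD32 array for COL4A3, COL4A4, COL4A5 and COL4A6 and above every one for COL4A1 and COL4A2. In all, 8 collagen genes lay above the AD32 arrays (23.9% of all genes) and 12 below (27.7% of all genes).

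Against A549 DMSO, the AD32 4E-BP1 array had no collagen gene past the threshold by limma, and 0% of all genes were called. A single collagen gene, COL5A1, had an unadjusted p under 0.05, against 1.14% of all genes. It stood at 8.34 on the AD32 4E-BP1 array, against 6.94 to 7.33 in A549 DMSO, a log2 difference of 1.13 (SE 0.24, adjusted p = 1). It was also above the other 5 arrays, and the next by p were COL18A1 (0.53, SE 0.24, unadjusted p = 0.0542) and COL7A1 (0.57, SE 0.32, unadjusted p = 0.103). All 3 lay above every A549 DMSO array, as 6 collagen genes did in all (15.1% of all genes), and 5 lay below (15.9% of all genes). COL3A1 and 5 of the 6 type IV genes lay within the A549 DMSO range, and COL4A3, at 5.14, lay just below it. For COL3A1, COL4A1 and COL4A6 the range took in the AD32 4E-BP1 array only through A549 DMSO replicate 1. Their levels on it were 8.003, 8.45 and 5.39. On A549 DMSO replicates 2 to 4 they were 8.105 to 8.78, 8.60 to 8.78 and 5.10 to 5.34. No array weights or minimum-fold test gave a collagen call in this comparison either.

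COL4A5 was higher on the 5 arrays with the lowest levels of mitosis genes than on the other 5. Within A549 disco, both COL4A5 and COL4A6 were higher on replicate 2, whose mitosis mean was only slightly above that of replicate 1. The mean level of 12 mitosis genes was 10.22 on the AD32 4E-BP1 array, 5.54, 6.602 and 9.98 in AD32, 7.10 and 7.29 in A549 disco, and 7.33, 10.30, 10.46 and 10.43 in A549 DMSO. The 5 lowest of these arrays were AD32 replicates 1 and 2, both A549 disco arrays and A549 DMSO replicate 1. On those 5 arrays COL4A5 was between 7.89 and 8.72 and COL4A6 between 5.91 and 7.10. On the other 5 COL4A5 was between 6.66 and 7.40, and COL4A6 was between 5.10 and 5.39 except on AD32 replicate 3, where it was 6.12. COL4A4 and COL3A1 instead set the 3 AD32 arrays, all in the drug, apart from every other array, with AD32 replicate 3 beside the other AD32 arrays. The AD32 4E-BP1 array, in DMSO, lay with the A549 arrays for both genes. The part of the mitotic difference in these results was not tested.

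**Figure D4:**
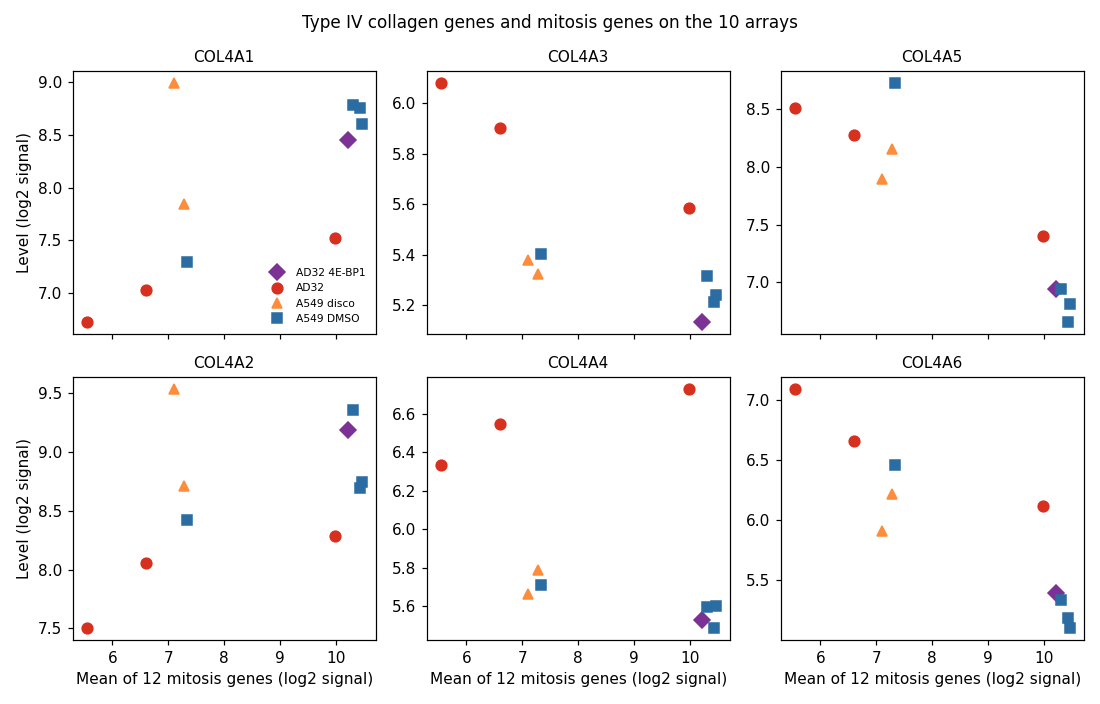
Level of each type IV collagen gene (y axis, log2 signal) against the mean level of 12 mitosis genes (x axis, log2 signal) on the 10 arrays, coloured by group. For COL4A5 the 5 arrays with a mitosis mean under 8 are all above the other 5. For COL4A4 the 3 AD32 arrays, at mitosis means of 5.54, 6.602 and 9.98, are above the rest.

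A549 DMSO replicate 1 and AD32 replicate 1 were high for the family as a whole. A549 DMSO replicate 1 was the highest of its group for 36 of 43 collagen genes (83.7%, against 41.5% of all genes), and AD32 replicate 1 for 33 (76.7%, against 39.7% of all genes). AD32 replicate 3 was the lowest of its group for 27 (62.8%, against 40.5% of all genes). Dim collagen genes shared in it. The median of the 9 genes below the lower quartile was 4.71 on AD32 replicate 1, against 4.64 and 4.49 on replicates 2 and 3, and 4.72 on A549 DMSO replicate 1, against 4.46 to 4.49 on replicates 2 to 4. The lower quartile of all genes was also highest on these 2 arrays, at 5.25 and 5.24. Its part in small differences between dim collagen genes was not tested.

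Collagen chains are hydroxylated, folded and glycosylated in the endoplasmic reticulum before export. Of 17 measured genes of modification and folding, 1 rose and 3 fell in AD32 against A549 DMSO, where 3.52% of all genes rose and 2.19% fell, and the median log2 difference was -0.46, against 0.01 over all genes. P4HA3, a catalytic subunit of prolyl 4-hydroxylase, was at 5.63, 5.59 and 5.12 in AD32, against 9.04, 8.32, 8.44 and 8.64 in A549 DMSO. The AD32 arrays were all lower by a wide margin, and the 8.96-fold fall (log2 difference -3.16, SE 0.20, adjusted p = 3.99e-05) held in every alternative. P4HA1, the main such subunit in most cells, fell 1.83-fold (adjusted p = 0.0233), and PLOD1, a lysyl hydroxylase, fell 2.14-fold (adjusted p = 0.0293). PLOD3, a lysyl hydroxylase that also adds sugars, rose 1.70-fold (adjusted p = 0.0342). The P4HA1, PLOD1 and PLOD3 calls ended when A549 DMSO replicate 2, 3 or 4 was left out, the first 2 also without AD32 replicate 1, PLOD1 and PLOD3 without AD32 replicate 2, and PLOD3 without AD32 replicate 3. All 3 also ended with the replicate number as a block (adjusted p = 0.065, 0.079 and 0.133), with A549 DMSO replicates 3 and 4 averaged and against a minimum fold, and that of PLOD3 with a trended robust prior.

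P4HA3 was low on the 3 AD32 arrays only. It was at 8.78 and 8.93 in A549 disco, within the A549 DMSO range, and at 8.76 on the AD32 4E-BP1 array. It was 10.6-fold lower in AD32 than in A549 disco (adjusted p = 0.000136) and 9.91-fold higher on the AD32 4E-BP1 array than in AD32 (adjusted p = 0.00132), the last of which ended when only those 2 groups were fitted. Against A549 disco, P4HA1 (2.08-fold) and PLOD1 (2.9-fold) also fell in AD32. Of the alternatives, 9 ended the P4HA1 call, among them the block (adjusted p = 0.0895), and 5 that of PLOD1, and both calls ended without AD32 replicate 1 or either A549 disco array and with only those groups fitted.

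After export, procollagen ends are cut off and the fibrils are crosslinked. Of 14 genes of export and processing, 1 rose and 1 fell in AD32 against A549 DMSO (median log2 difference -0.08), against 3.52% and 2.19% of all genes. MIA2, a cargo receptor for bulky secreted proteins, rose 2.36-fold (adjusted p = 0.013), and PCOLCE2, an enhancer of C-propeptide cleavage, fell 1.96-fold (adjusted p = 0.0483). The PCOLCE2 call ended without AD32 replicate 1 or 2, either A549 disco array, or A549 DMSO replicate 2, 3 or 4, with the replicate number as a block (adjusted p = 0.0641), with A549 DMSO replicates 3 and 4 averaged, with only those groups fitted and against a minimum fold. Against A549 disco, PCOLCE2 (3.61-fold, adjusted p = 0.00918) and BMP1, the C-proteinase itself (2.2-fold, adjusted p = 0.0216), were lower in AD32. BMP1 averaged 7.75 in AD32 and 7.95 in A549 DMSO, against 8.88 in A549 disco. Both calls ended without either A549 disco array. The BMP1 call also ended without AD32 replicate 1 or 2 and with the mean of its probe sets (1.54-fold lower). It ended too with the block (adjusted p = 0.0771), with only those groups fitted and against a minimum fold.

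Among 6 crosslinking enzymes, 1 rose and 1 fell in AD32 against A549 DMSO (median log2 difference 0.13), against 3.52% and 2.19% of all genes. LOXL4, a lysyl oxidase family member, was at 8.35, 8.38 and 7.96 in AD32, against 6.06, 5.44, 5.48 and 5.71 in A549 DMSO. Every AD32 array was higher, a 5.87-fold rise (adjusted p = 8.64e-05). LOXL2, a related enzyme that acts on type IV collagen, was at 7.06, 6.98 and 8.44 in AD32, against 9.53, 9.67, 9.13 and 9.12 in A549 DMSO. It was lower on every AD32 array, a 3.65-fold fall (adjusted p = 0.0135) that ended without AD32 replicate 1 or 2. Against A549 disco, LOXL4 was 3.39-fold higher and LOXL2 4.42-fold lower in AD32 (adjusted p = 0.00369 and 0.0217), and both calls ended without A549 disco replicate 1, that of LOXL2 also without A549 disco replicate 2 or AD32 replicate 1 or 2 and with only those groups fitted. On the AD32 4E-BP1 array LOXL4, at 5.30, was 7.62-fold lower than in AD32 (adjusted p = 0.00167), a call that ended with only those groups fitted.

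Genes whose products share the basement membrane with type IV collagen had higher transcript levels in AD32 where they passed. Of 14 measured genes, 5 rose in AD32 against A549 DMSO, where 3.52% of all genes rose, and the other 9 did not pass, with a median log2 difference of 0.39 against 0.01 over all genes. NID2, a nidogen that links laminin to type IV collagen, was at 9.71, 10.04 and 9.65 in AD32, against 5.88, 5.25, 6.31 and 6.42 in A549 DMSO. LAMB3, a chain of the laminin that anchors epithelial cells, was at 10.24, 10.24 and 9.53 in AD32, against 6.71, 6.88, 6.37 and 6.42 in A549 DMSO. Every AD32 array was higher for both, by 14.3-fold for NID2 (adjusted p = 8.64e-05) and 10.6-fold for LAMB3 (adjusted p = 3.99e-05), and both calls held in every alternative.

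HSPG2 (perlecan, 2.39-fold), AGRN (agrin, 2.24-fold) and LAMA5 (a laminin chain, 1.98-fold) also rose in AD32, with adjusted p between 0.0183 and 0.0483. All 3 calls ended without AD32 replicate 1 or 2 and without A549 DMSO replicate 3 or 4. Those of AGRN and LAMA5 also ended without A549 DMSO replicate 2 or either A549 disco array, and that of AGRN without AD32 replicate 3. Quantile normalization ended those of AGRN (adjusted p = 0.0858) and LAMA5 (0.063), as did fitting only the compared groups, and the block ended that of AGRN (0.0573). All 3 ended with A549 DMSO replicates 3 and 4 averaged and against a minimum fold. Against A549 disco, NID2 (11.3-fold, adjusted p = 0.00078) and LAMB3 (5.11-fold, adjusted p = 0.0017) were higher in AD32. HSPG2, AGRN and LAMA5 were not called in that comparison, nor in A549 disco against A549 DMSO. Their means in A549 disco were 8.35, 9.68 and 9.48, against 8.78, 9.71 and 9.88 in AD32. In A549 DMSO they were 7.52, 8.55 and 8.89, with replicate 1 the highest of its group for each. On the AD32 4E-BP1 array NID2 was at 5.75 and LAMB3 at 7.12, which is 16.5-fold and 7.36-fold lower than in AD32 (adjusted p = 0.00261 and 0.00389). That of LAMB3 ended with only those groups fitted (adjusted p = 0.15).

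**Figure D5:**
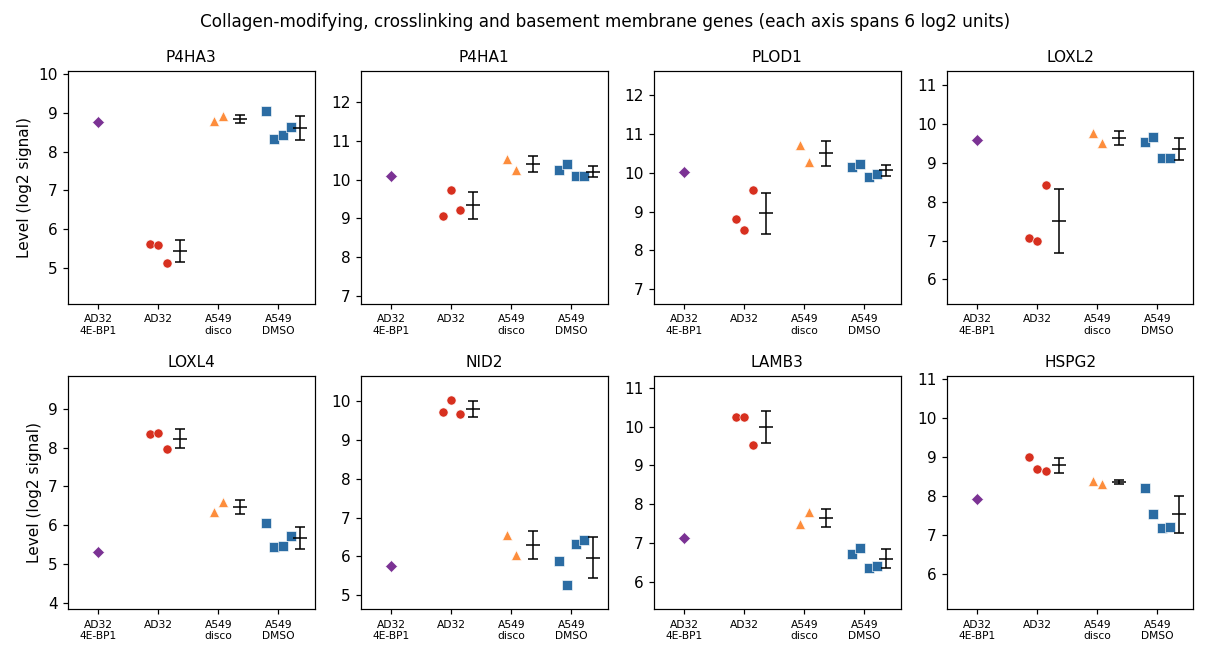
Levels (y axis, log2 signal) of P4HA3, P4HA1, PLOD1, LOXL2, LOXL4, NID2, LAMB3 and HSPG2 on each array, in the groups AD32 4E-BP1, AD32, A549 disco and A549 DMSO from left to right, with the mean and SD of each group (AD32 4E-BP1 has 1 array). The 3 AD32 arrays are apart from all others in each of these genes, with the widest gaps in P4HA3, LOXL4, NID2 and LAMB3.

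Receptors and breakdown genes had 1 call each in AD32 against A549 DMSO, both higher, where 3.52% of all genes rose. Of 9 measured collagen receptors, ITGA2, the alpha chain of a collagen-binding integrin, rose 2.97-fold in AD32 against A549 DMSO (adjusted p = 0.0216) and the other 8 did not pass. That call ended without AD32 replicate 1 or 2 or A549 DMSO replicate 2, 3 or 4, with A549 DMSO replicates 3 and 4 averaged and against a minimum fold. Of 12 breakdown genes, TIMP4, an inhibitor of matrix metalloproteinases, rose 2.11-fold in AD32 (adjusted p = 0.00275) and the other 11 did not pass. TIMP4 was at 7.95, 7.78 and 7.75 in AD32 and 7.87 and 8.05 in A549 disco, against 6.96, 6.52, 6.72 and 6.78 in A549 DMSO. Both groups in the drug were above all A549 DMSO arrays, as was the AD32 4E-BP1 array in DMSO, at 7.48. TIMP4 also rose in A549 disco against A549 DMSO (2.32-fold, adjusted p = 0.0184, limma). It was the only gene of the 6 lists of collagen partners that did. That second call, in a comparison where 0.35% of all genes rose, ended without either A549 disco array or A549 DMSO replicate 2, 3 or 4, with the replicate number as a block (adjusted p = 0.2), with A549 DMSO replicates 3 and 4 averaged and against a minimum fold (0.057).

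Of 10 epithelial markers, some were bright on every array and others dim. The keratins KRT8 and KRT18 were at 12.67 to 13.73 and at 13.03 or more, and the cadherin CDH1 was at 8.46 to 10.40, while EPCAM was at 3.30 to 3.87, below the lower quartile of every array, and KRT19, CLDN4 and MUC1 were below the median of every array.

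The mean of the epithelial list was 7.72 on the AD32 4E-BP1 array, 8.56 to 8.66 in AD32, 8.08 and 8.13 in A549 disco and 7.63 to 7.998 in A549 DMSO. In AD32 against A549 DMSO all 10 group means were higher in AD32, and 2 genes rose (3.52% of all genes did). KRT7, a keratin, was at 11.84, 11.74 and 11.76 in AD32, against 7.02, 7.398, 6.997 and 7.12 in A549 DMSO. The AD32 arrays were far above the others, a log2 difference of 4.65 (SE 0.13, adjusted p = 8.19e-07) that held in every alternative. CDH1 rose too (1.11, SE 0.25, adjusted p = 0.0357), a call that 12 of 20 alternatives ended. Its mean was 10.03 in AD32, 9.84 in A549 disco and 8.92 in A549 DMSO. In A549 disco against A549 DMSO, 9 of the 10 group means were higher, with 0 calls (0.372% of all genes). On the AD32 4E-BP1 array all 10 genes were below the AD32 mean, and KRT7, at 7.35, was 21.5-fold lower than in AD32 (adjusted p = 5.16e-05), where 0.58% of all genes fell. The part of this epithelial difference in the collagen results was not tested.

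Markers of cell types that usually make fibrillar collagen had no adjusted calls in AD32 against A549 DMSO. Of 8 fibroblast markers that are not collagens, 0 passed in AD32 against A549 DMSO by limma, 0 had an unadjusted p under 0.05, and their mean was 4.26 on the AD32 4E-BP1 array, 4.31 to 4.48 in AD32, 4.64 in both A549 disco arrays and 4.504 to 4.73 in A549 DMSO. The fibroblast marker DCN was at 2.88 to 3.22. PDGFRB (5.30 to 6.06) and TCF21 (5.575 to 6.67) were above the lower quartile of all genes on every array. LUM (3.26 to 5.515) and POSTN (3.32 to 5.09) varied more between arrays than those 3 genes. Of 6 endothelial markers, 0 passed at either threshold and the mean was 4.79 to 5.07 over all arrays. In bulk RNA, fewer cells that express a gene and less of its transcript per cell cannot be told apart. Markers of smooth muscle (5.44 to 5.85), leukocytes (5.38 to 6.14) and chondrocytes (5.62 to 6.23) had 0 adjusted calls in AD32 against A549 DMSO by limma, and 0, 1 and 1 at an unadjusted p under 0.05 in that order.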

How the data were processed

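Levels were measured on 10 arrays of labelled total RNA, in the groups AD32 4E-BP1 (n = 1), AD32 (n = 3), A549 disco (n = 2) and A549 DMSO (n = 4), taken from the cell line in the labels. The authors deposited log2 signals, a scale read from the range of values. Affymetrix Expression Console is the tool that the submitters' processing notes name, with version, summarisation and normalization not given in the sources used here. The number of arrays limits the precision.

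Of 24308 probe sets, 19262 had 1 gene symbol, 1720 several and 3326 none in the platform annotation. The 18279 genes took their probe set with the highest mean. For collagens that choice concerned COL11A2, with 3 probe sets, of which the 2 not used hold the same values as each other. COL17A1 was not analysed here. Some genes of the other lists, COLGALT2, ITGA1 and LAMA3 among them, were not analysed either.

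Tests used limma 3.58.1 in R 4.3.3 (lmFit and eBayes over all 10 arrays, 6 residual degrees of freedom, two-sided, Benjamini-Hochberg adjustment over all genes, threshold 0.05), and were tested on simulated data. Folds are ratios of signal. Both AD32 and A549 disco were set against the same 4 A549 DMSO arrays. Named with values were the called collagen genes, those above the median on all arrays, the 3 with the smallest p where none was called, and their trimer partners. The members, lists and alternatives were chosen with earlier results of these data known. Each test was repeated with quantile normalization on top, with median centring, without the lowest 33.3% of genes, with a trended robust prior, array weights, the compared groups alone, mean probe sets, a block for the replicate number, each replicated array left out, A549 DMSO replicates 3 and 4 averaged, and a minimum fold of 1.2. Promoter windows are those of RefSeq on GRCh38.p14, and motifs were counted with Python 3.11.15.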

Additional observations from a re-analysis of the deposited data

Results flagged for a closer look

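Among the 21 collagen genes named with values, 4 had 1 A549 DMSO array far from the other 3, and it was replicate 1 each time. COL4A1 was at 7.29 on replicate 1, against 8.60 to 8.78 on the others. COL5A1 was at 6.94, against 7.27 to 7.33. COL4A5 was at 8.72, against 6.66 to 6.95, and COL9A1 at 5.81, against 5.196 to 5.24. The gap to the nearest array was 0.862 to 0.924 of the whole range of the group in these genes. Chance sets an array apart in this way in about 1 of 20 groups, and these genes share the same arrays.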

How the results depend on the processing

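Over all alternatives, 2493 of 2698 single-gene results kept their side of the threshold, 147 lost a call and 58 gained one. Signs changed in 135 of them, and 0 of these were called. The cause was not tested. The number of called collagen genes moved by over 1.5 times in 23 of 98 cases. With array weights it was 8 in AD32 against A549 DMSO (23.1% of all genes), 13 in A549 disco against A549 DMSO (25%), 6 in AD32 against A549 disco (10.2%) and 5 in AD32 4E-BP1 against AD32 (7.01%). With A549 DMSO replicate 1 and AD32 replicate 3 both removed, which was added after the data had been seen, it was 11 (28.3%), 7 (14.5%), 7 (15.1%) and 9 (16.4%) in the same order. In AD32 against A549 disco it was 1 with median centring (3.5%) or with A549 DMSO replicates 3 and 4 averaged (2.51%), and 0 with only the compared groups fitted or against a minimum fold (1.93% each). With single arrays left out it ran from 2 to 7 in AD32 against A549 DMSO (2.8% to 11.8% of all genes), 0 to 2 in AD32 against A549 disco (0.722% to 6.65%) and 0 to 3 in AD32 4E-BP1 against AD32 (0.542% to 3.59%), and was 0 throughout in A549 disco and in AD32 4E-BP1 against A549 DMSO. With the replicate number as a block, the counts were 2 in AD32 against A549 DMSO (3.56% of all genes), 0 in A549 disco against A549 DMSO (0.0219%) and 0 in AD32 against A549 disco (2.99%). The block also ended the calls of P4HA1, PLOD1, PLOD3, PCOLCE2, AGRN and CDH1 in the first, TIMP4 in the second and P4HA1 and BMP1 in the third. Same-numbered arrays of AD32 and A549 DMSO did not deviate together in every pair (r = 0.686, -0.266 and 0.426). AD32 replicates 2 and 3 did not correlate best with their own numbers. These correlations cannot tell whether same-numbered arrays were handled together, since AD32 replicate 3 and A549 DMSO replicate 1 stood apart from their groups. The lone AD32 4E-BP1 array has no replicate number. No paired analysis was possible for its 2 comparisons because of that.

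Over all genes the calls in AD32 against A549 DMSO, 1045 with all arrays, ran from 488 against a minimum fold to 5164 with both arrays removed, and single arrays left out gave 512 to 2164. In A549 disco against A549 DMSO they ran from 4 with the block to 4573 with array weights, in AD32 against A549 disco from 132 to 2769, in AD32 4E-BP1 against AD32 from 13 to 3005, and in AD32 4E-BP1 against A549 DMSO from 0 to 3. Dim probe sets limit what can be said of 9 collagen genes in any group.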
